A study of Mus musculus with 8 samples.

Results

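Complement transcripts were followed in whole mouse testis after valine, through 9 genes of the 55414 in the expression table. They comprised the C1q chain genes C1qa, C1qb and C1qc, the proteases C1ra and C1s1, the components C2, C3 and C4b, and Serping1, which encodes C1 inhibitor. All 9 were found by symbol. The genes were selected on the FPKM values of this table with the difference between valine and control testes already known, so that difference is given for them as a description, without p-values. FPKM scales the fragments of a gene by its transcript length and by the size of the library, so levels of different genes can be set side by side.

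The study compared 4 testis samples from control mice with 4 from mice under valine, an essential amino acid with a branched side chain. The question named in the series title was whether valine acts on apoptosis, autophagy and nucleic acid methylation in the testis. The sources used here do not state the dose, route and duration of valine, the strain and age of the mice, or whether each sample came from its own animal. The p-values below thus describe the spread among these samples alone, and that spread may be technical.

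Complement is a cascade of plasma and tissue proteins that marks cells and debris for uptake or lysis. In the classical pathway C1q binds antibody or altered surfaces, C1r then activates C1s, C1s cleaves C4 and C2, and the resulting enzyme cleaves C3; C1 inhibitor disarms C1r and C1s. Tissue C1q is made mainly by macrophages, whereas C1r, C1s, C3, C4 and C1 inhibitor are made by liver and also by fibroblasts and other stromal cells. The macrophages of the testis lie in the interstitium beside the Leydig cells, outside the blood-testis barrier, while germ cells and sperm carry membrane proteins that restrain complement.

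The C1q chain genes lie next to each other on chromosome 4, in the order C1qb, C1qc, C1qa, and C1ra and C1s1 are neighbours on chromosome 6, followed by their close copies C1rb and C1s2. Promoters from 250 bases before to 50 bases after the annotated start are shown for the neighbours whose transcripts differed in how far they were lower: C1qb and C1qc, and C1ra and C1s1. Of the 9 genes, 5 had an entry in the RefSeq promoter table (build GRCm38.p6), and the first of 2 overlapping entries is shown for C1s1. Sequences read 5′ to 3′ on the strand of the gene, and capitals mark the letters GAGGAA or, for a match on the other strand, TTCCTC, the core bound by the myeloid factor PU.1 and other ETS proteins.
C1qb, chr4:136886151-136886450, minus strand: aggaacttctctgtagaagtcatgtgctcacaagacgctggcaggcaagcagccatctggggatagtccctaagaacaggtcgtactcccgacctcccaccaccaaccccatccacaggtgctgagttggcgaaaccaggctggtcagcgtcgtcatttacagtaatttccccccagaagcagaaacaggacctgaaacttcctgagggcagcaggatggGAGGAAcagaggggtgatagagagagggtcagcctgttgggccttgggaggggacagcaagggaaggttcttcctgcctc
C1qc, chr4:136892865-136893164, minus strand: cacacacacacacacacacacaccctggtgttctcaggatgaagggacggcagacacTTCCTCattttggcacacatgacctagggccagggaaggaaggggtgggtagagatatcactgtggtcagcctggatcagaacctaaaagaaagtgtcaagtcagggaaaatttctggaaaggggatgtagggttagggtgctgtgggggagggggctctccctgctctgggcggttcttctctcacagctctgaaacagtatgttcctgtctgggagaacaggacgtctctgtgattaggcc
C1ra, chr6:124512371-124512670, plus strand: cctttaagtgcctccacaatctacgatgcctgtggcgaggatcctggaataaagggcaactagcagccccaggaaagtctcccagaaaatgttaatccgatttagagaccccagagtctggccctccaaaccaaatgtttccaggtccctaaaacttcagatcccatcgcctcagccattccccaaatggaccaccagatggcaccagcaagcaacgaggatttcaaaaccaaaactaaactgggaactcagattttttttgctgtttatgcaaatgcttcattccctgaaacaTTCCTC
C1s1, chr6:124542310-124542609, minus strand: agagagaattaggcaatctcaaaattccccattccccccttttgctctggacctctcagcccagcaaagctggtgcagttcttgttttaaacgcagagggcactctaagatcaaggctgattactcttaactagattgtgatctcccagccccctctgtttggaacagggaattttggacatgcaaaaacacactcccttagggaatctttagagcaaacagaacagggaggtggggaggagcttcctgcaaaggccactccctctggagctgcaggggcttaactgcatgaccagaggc

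The letters GAGGAA occurred once in the C1qb window, once in that of C1qc and once in that of C1ra, with the first base of the match at -30, -193 and 45 from the start. The C1s1 window did not hold them. Of 32851 promoters of the same length, 28.3% held this motif on either strand. None of the 4 windows held TATAAA, which 13.6% of all promoters did. TTCNNNGAA, the letters of STAT-binding elements, occurred in the C1ra window alone among the 4, and in 8.3% of all promoters. The motifs were picked after the values were known, and a match describes the letters only.

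Complement transcripts were less abundant in valine testes, with a summed level of the 9 genes of 50.7 ± 3.41 FPKM against 104.4 ± 15.7 FPKM in control testes (mean ± SD, n = 4 per group). The summed FPKM of the 9 genes was 125.8, 106.2, 90.3 and 95.4 in control replicates 1 to 4 and 51.5, 45.9, 53.98 and 51.5 in valine replicates 1 to 4. All 9 genes had a lower mean with valine. In the fit across all genes 6 of the 9 were called lower (C1qa, C1qc, C1ra, C1s1, C3 and Serping1) and none higher, where 4.41% of the 22077 tested genes were called lower. The groups did not overlap for 8 of the 9, all except C4b, where 9.39% of tested genes were lower without overlap. The median log2 change of the 9 was -1.14, against 0.02 over all tested genes. Because the genes were chosen with this difference known, nothing is read from these counts. The calls and intervals given below for single genes of the 9 are likewise a description and no test. In whole tissue, fewer cells of a type and less RNA per cell cannot be told apart.

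**Figure D1:**
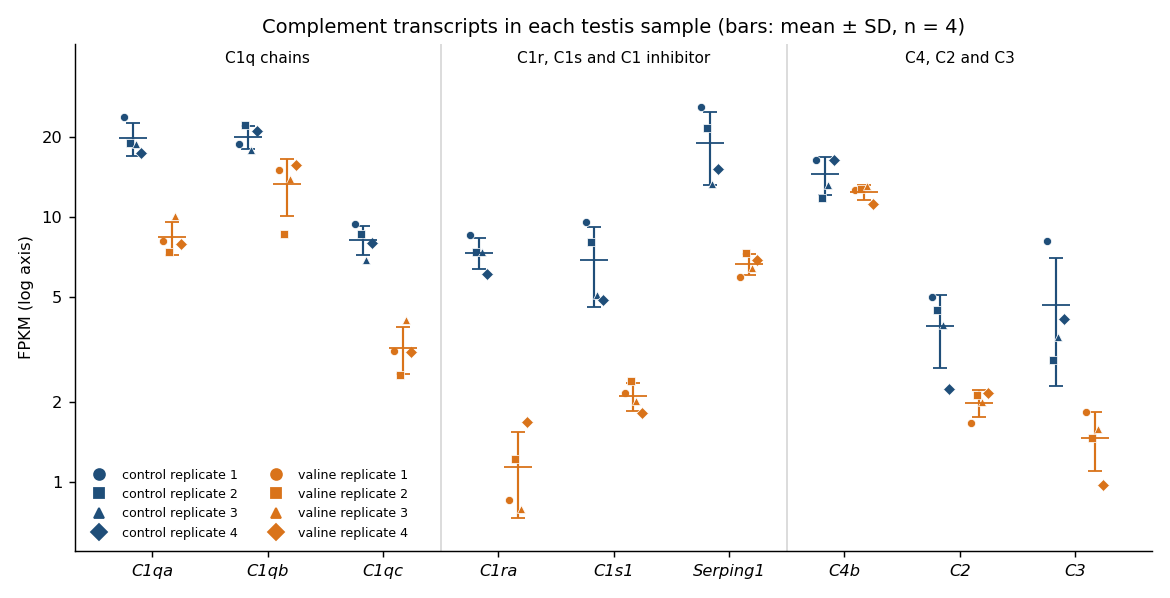
FPKM (log axis) of the 9 complement genes in each of 4 control and 4 valine samples; symbols mark the replicate, and horizontal and vertical bars give the mean and SD. The groups stand apart for each gene except C4b, with the widest gap for C1ra and the narrowest for C2.

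C1q itself is built from A, B and C chains in equal numbers. C1qa, the A chain, stood at 23.9, 19.0, 18.9 and 17.4 FPKM in control replicates 1 to 4 against 8.11, 7.41, 10.1 and 7.95 FPKM in the 4 valine replicates in the same order. Its mean was 57.7% lower with valine, and the highest valine sample lay well below the lowest control. C1qc, the C chain, had 9.38, 8.61, 6.90 and 8.0 FPKM in the control samples and 3.12, 2.54, 4.08 and 3.09 FPKM in the valine samples, a mean 61.0% lower. For both chains valine replicate 3 was the highest valine sample and valine replicate 2 the lowest, and the log2 changes were -1.15 ± 0.12 SE and -1.14 ± 0.13 SE.

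The B chain went less far. C1qb had 18.8, 22.3, 18.0 and 21.1 FPKM in control replicates 1 to 4 and 15.1, 8.62, 13.9 and 15.7 FPKM in valine replicates 1 to 4. Only valine replicate 2 was at less than 50% of the lowest control sample, and the other valine samples were within a few FPKM of it. The mean was 33.5% lower, with a log2 change of -0.58 ± 0.17 SE, and C1qb was not called in the fit across all genes. After the samples were rescaled to equal totals, it was.

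The balance of the chains shows this within each sample. The ratio of C1qc to C1qa was 0.392, 0.453, 0.365 and 0.459 in the control samples and 0.385, 0.343, 0.404 and 0.389 in the valine samples, so the ranges overlapped although each transcript was less than 50% as abundant with valine. The ratio of C1qb to C1qc was 2.01, 2.59, 2.60 and 2.63 in the control samples and 4.84, 3.40, 3.40 and 5.08 in the valine samples. These groups did not overlap. The ratio of C1qb to C1qa was 0.786 to 1.21 in control and 1.16 to 1.97 in valine testes, with valine replicate 2 inside the control range.

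**Figure D2:**
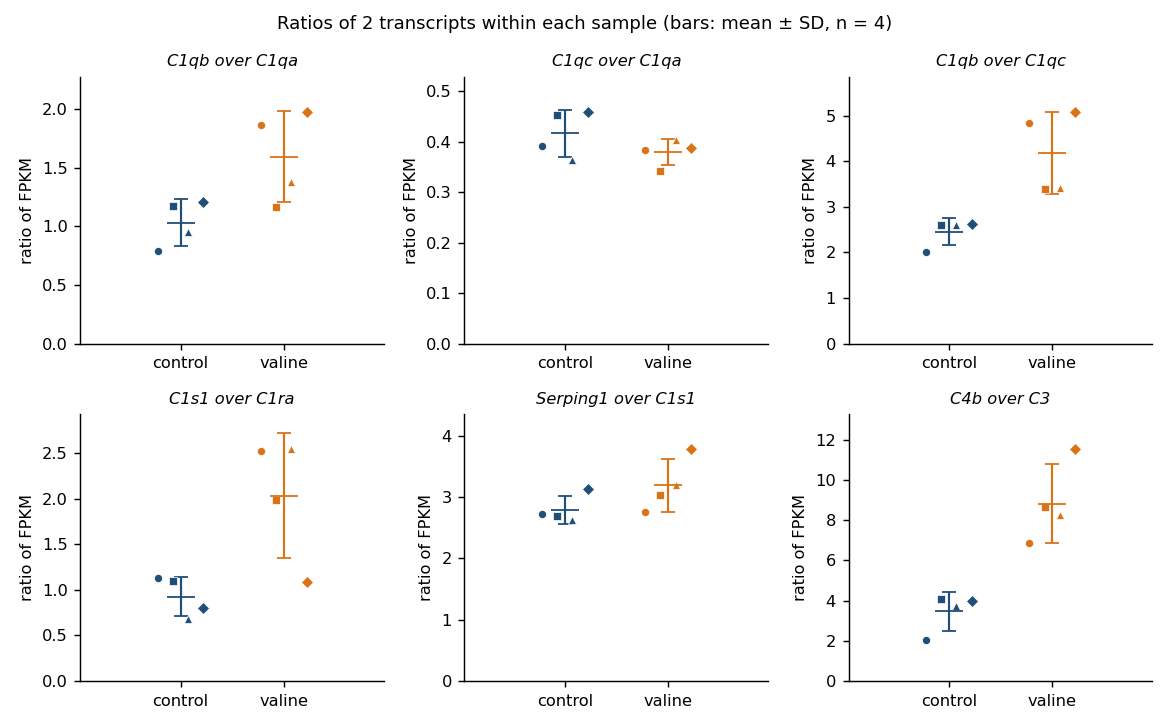
Ratios of the FPKM of 2 transcripts within each sample, with the mean and SD of 4 samples per group. C1qc to C1qa and Serping1 to C1s1 overlap between the groups, whereas C1qb to C1qc and C4b to C3 do not.

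Farther from the control level than the C1q chains were the proteases of C1. C1ra, which encodes the protease C1r, had 8.52, 7.38, 7.40 and 6.08 FPKM in control replicates 1 to 4 and 0.858, 1.22, 0.793 and 1.68 FPKM in valine replicates 1 to 4. The ratio of the group means was 6.45, the greatest of the 9, and the log2 change of FPKM + 1, which understates the change of such low values, was -1.98 ± 0.16 SE. C1s1, which encodes C1s, had 9.58, 8.09, 5.06 and 4.85 FPKM in control and 2.17, 2.42, 2.02 and 1.82 FPKM in valine samples. Its control samples spread 1.97-fold, with replicates 1 and 2 high, while the 4 valine samples lay close together. The ratio of the means was 3.28, with a log2 change of -1.30 ± 0.20 SE.

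The ratio of C1s1 to C1ra was 1.12, 1.10, 0.684 and 0.799 in the control samples and 2.52, 1.98, 2.54 and 1.08 in the valine samples. Valine replicate 4, which had the most C1ra of its group, was within the control range, and the other 3 were above it.

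Serping1 encodes C1 inhibitor, the plasma serpin that inactivates C1r and C1s. Its values were 26.1, 21.7, 13.3 and 15.2 FPKM in control replicates 1 to 4 and 5.96, 7.35, 6.44 and 6.88 FPKM in valine replicates 1 to 4. As for C1s1, control replicates 1 and 2 were high, and the log2 change was -1.35 ± 0.19 SE. The ratio of Serping1 to C1s1 was 2.72, 2.68, 2.63 and 3.13 in control and 2.75, 3.04, 3.196 and 3.78 in valine samples, and the ranges overlapped. The ratio of Serping1 to C1ra was 1.80 to 3.06 in control and 4.09 to 8.13 in valine testes, without overlap.

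C1ra, C1s1 and C4b each have a near-identical copy, and how the counting divided shared reads is not stated in the sources used here, so their values are uncertain to that extent. C1rb had 0.590 to 1.66 FPKM in control and 0.346 to 0.744 FPKM in valine testes. The sum of C1ra and C1rb was 8.42 ± 0.98 and 1.63 ± 0.42 FPKM (mean ± SD, n = 4 per group), so adding the copy left the gap in place. C1s2, the copy of C1s1, had 2.27 ± 0.65 and 1.57 ± 0.39 FPKM and was not called (limma adjusted p = 0.285). The sum of C1s1 and C1s2 was 6.65 to 12.6 FPKM in control and 3.18 to 4.21 FPKM in valine samples, again with no overlap.

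The substrates of C1s are C4 and C2. C4b, whose product is cleaved to tag surfaces, had 16.5, 11.8, 13.3 and 16.5 FPKM in control replicates 1 to 4 and 12.7, 12.8, 13.1 and 11.3 FPKM in valine replicates 1 to 4. It was the only one of the 9 whose groups overlapped, and the 95% interval of its log2 change ran from -0.46 to 0.07. Its copy C4a had 6.92 ± 1.35 and 5.92 ± 1.41 FPKM (mean ± SD, n = 4 per group; limma adjusted p = 0.526), and the sum of both was 18.5 to 24.6 FPKM in control and 17.1 to 19.0 FPKM in valine testes. C4b was not called under any alternative run; C4a was not refitted under them.

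C2, the protease that joins C4 in the convertase, had 4.98, 4.45, 3.90 and 2.24 FPKM in control and 1.67, 2.13, 2.002 and 2.17 FPKM in valine samples. Control replicate 4 stood just above the highest valine sample and the other control samples well above it. The log2 change was -0.67 ± 0.19 SE and was not called; without control replicate 4 it was -0.86 and called. Reads of C2 may include some of Zbtb12, which overlaps it on the opposite strand at a mean of 2.52 FPKM, since the strand setting is not stated in the sources used here.

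C3, the central component on which all pathways converge, had 8.13, 2.88, 3.54 and 4.14 FPKM in control replicates 1 to 4 and 1.84, 1.47, 1.58 and 0.975 FPKM in valine replicates 1 to 4. Control replicate 1 was far above the other control samples, and each of these was above every valine sample. The log2 change was -1.13 ± 0.26 SE; leaving out control replicate 1 gave -0.88, and C3 was then still called. It was no longer called on leaving out control replicate 3 or 4 or any valine sample. As C3 was chosen with the difference known, these calls are a description and no test. The same control sample stood out for some fat cell markers, picked with their values in view. Car3 and Fabp4 had 14.6 and 7.78 FPKM in it and at most 1.65 and 1.75 FPKM in the other 7 samples. Cidec, Retn and Lep were also highest in it, but Adipoq and Plin1 were not. Adipoq, the most abundant of the list, had 30.85 FPKM in it and 27.2 to 38.6 FPKM elsewhere. Control replicate 1 also stood out for Hp, haptoglobin, an acute phase protein of liver and fat (6.09 FPKM, and at most 1.38 FPKM elsewhere). The epididymis marker Crisp1 had 5.06 FPKM in it and at most 0.282 FPKM elsewhere. No other epididymis marker was highest in that sample. Rnase10, the most abundant of them, had 3.76 FPKM there and up to 9.34 FPKM elsewhere. The part of these markers in the result was not tested. The ratio of C4b to C3 was 2.02 to 4.10 in control and 6.88 to 11.5 in valine testes, without overlap.

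Ordered by mean level, the control testes had C1qb (20.03 FPKM), C1qa (19.8 FPKM), Serping1 (19.1 FPKM) and C4b (14.5 FPKM) above C1qc (8.22 FPKM), C1ra (7.35 FPKM), C1s1 (6.90 FPKM), C3 (4.68 FPKM) and C2 (3.89 FPKM). Neighbours in this order overlapped in range except C4b and C1qc. With valine the order was C1qb (13.3 FPKM), C4b (12.4 FPKM), C1qa (8.39 FPKM), Serping1 (6.66 FPKM), C1qc (3.21 FPKM), C1s1 (2.10 FPKM), C2 (1.99 FPKM), C3 (1.47 FPKM) and C1ra (1.14 FPKM). Here C1qb overlapped C4b, and C1s1, C2, C3 and C1ra each overlapped the next. C1ra was at rank 6 in control and rank 9 in valine testes, and C4b at rank 4 and rank 2.

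The macrophage-made C1q chains were then set against the other 6 genes as means of log2(FPKM + 1) per sample. The C1q mean was 3.85 to 4.11 in control and 2.72 to 3.24 in valine samples, a change of -0.96. The mean of the other 6 was 2.93 to 3.55 in control and 2.01 to 2.12 in valine samples, a change of -1.10. The C1q mean minus the mean of the 6 was 0.556, 0.903, 0.878 and 1.02 in control and 1.07, 0.60, 1.22 and 1.06 in valine samples. These ranges overlapped, so on this scale the chains and the other genes as a whole did not separate beyond the spread between samples. The scale understates the change of low values, and C1ra, C1s1, C2 and C3 had means of 1.14 to 2.10 FPKM with valine. With a smaller constant than 1 added to FPKM, the C1q chains changed by -1.06 and the other 6 by -1.39. The ranges of the C1q mean minus the mean of the 6 overlapped on that scale too. On the log2(FPKM + 1) scale the 6 were divided further, into sets drawn with their values known. C1ra, C1s1 and Serping1 together changed by -1.54, C3 alone by -1.13, and C2 and C4b together by -0.44, which is a description only.

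**Figure D3:**
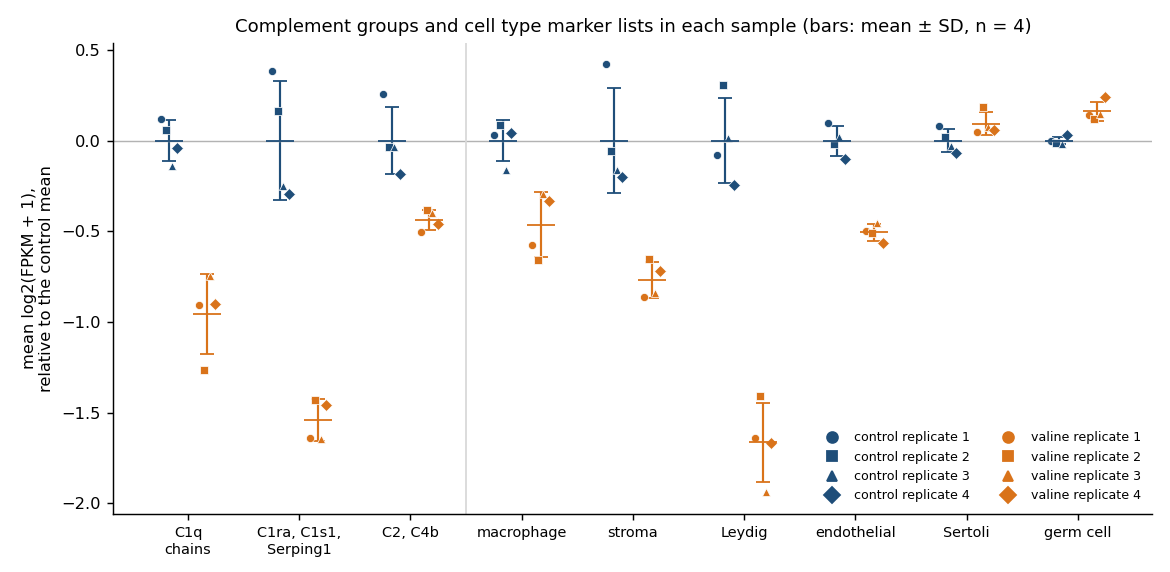
Mean log2(FPKM + 1) of each gene group in each sample, minus the mean of the 4 control samples, with the mean and SD of 4 samples per group. C1ra, C1s1 and Serping1 lie near the Leydig list in valine samples, C2 and C4b near the macrophage and endothelial lists, and the Sertoli and germ cell lists at or above 0.

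Some markers of macrophages were lower in the same samples. Of 23 macrophage markers 18 were tested, 5 were called lower and 1, Aif1, higher, where 4.41% of all tested genes were lower and 4.32% higher. The count called lower was 3 without control replicate 1 or 2 or valine replicate 1 or 2. The median log2 change of the list was -0.35. Ctss, a lysosomal protease, fell from 8.39 ± 1.56 to 2.26 ± 0.60 FPKM (limma adjusted p = 0.00355), and Csf1r, the receptor on which macrophages depend, from 4.29 ± 0.69 to 1.32 ± 0.29 FPKM (limma adjusted p = 0.00426). Adgre1, chosen after its value was seen, had 2.75 ± 0.48 and 2.56 ± 0.36 FPKM (limma adjusted p = 0.788). The summed list was 578 to 659 FPKM in control and 637 to 763 FPKM in valine samples. Without Aif1 and Fcgr3, which made up most of it, it was 98.8 to 135.3 and 56.5 to 89.7 FPKM. No macrophage marker was listed at 0 in all samples.

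Markers of stromal, Leydig and endothelial cells are read against the same 4.41% of all tested genes called lower. Of 15 stromal markers 7 were called lower, 8 were not called and none was higher, with a median log2 change of -0.79 and a summed level of 345.5 to 478.6 FPKM in control and 250.4 to 281.6 FPKM in valine samples. Among them Gsn, an actin-severing protein, fell from 56.5 ± 11.1 to 22.6 ± 4.48 FPKM (limma adjusted p = 0.00613). All 9 Leydig markers were called lower, and their summed level was 1635 to 2310 FPKM in control and 502 to 793 FPKM in valine samples. Of 8 tested endothelial markers 4 were called lower, with sums of 33.8 to 39.9 and 20.7 to 23.1 FPKM. The share of the difference in complement genes that goes with these cell types was not tested.

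Other cell types that could carry complement transcripts into the sample were read from their own markers. Counts called in these lists stand beside 4.41% of all tested genes called lower and 4.32% called higher. In the liver list 6 of 10 genes never reached 1 FPKM, albumin (Alb) being at most 0.967 FPKM, and 1 of the 4 tested, Apoa2, was called higher. Apoh, another of the 4, was at 54.3 to 82.4 FPKM in every sample and was not called (limma adjusted p = 0.324), and the list summed to 72.9 to 91.7 FPKM in control and 81.2 to 106.6 FPKM in valine samples. The summed blood cell markers were 62.6 to 113.4 FPKM in control and 36.5 to 120.4 FPKM in valine samples, none of 5 tested was called, and the neutrophil gene S100a8 was listed at 0 in every sample. Markers of fat cells summed to 31.6 to 63.7 FPKM in control and 33.9 to 41.6 FPKM in valine samples, with 1 of 5 tested called lower (Plin1); none was called lower on leaving out any 1 sample except control replicate 4. Of 9 epididymis markers 1 was tested and it was not called; the sums were 2.86 to 13.1 and 6.002 to 10.6 FPKM. Markers of the labelled tissue were present in every group: those of Sertoli cells summed to 279.8 to 336.0 FPKM in control and 310.5 to 351.3 FPKM in valine samples, and those of germ cells to 35609.3 to 38203.4 and 46724.9 to 57815.5 FPKM. Of 10 Sertoli markers 1 was called higher, and of 11 germ cell markers 5 were higher and 1 lower. Of 8 peritubular myoid markers 3 were called lower.

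Interferon and inflammatory signals are known inducers of C1r, C1s, C2, C3, C4 and C1 inhibitor. Of 9 tested interferon-inducible genes 2 were called lower and none higher, with a median log2 change of -0.41 and 4.41% of all tested genes lower. The count was 1 without control replicate 1, 2 or 4 or valine replicate 1, 2 or 4, and 3 without control replicate 3. They were Irf8, a myeloid transcription factor (2.75 ± 0.28 to 0.959 ± 0.34 FPKM, limma adjusted p = 0.0105), and B2m, the light chain of class I molecules (83.2 ± 20.1 to 42.0 ± 12.1 FPKM, limma adjusted p = 0.0285). Irf1, chosen with its values in view, had 1.93 ± 0.41 and 1.199 ± 0.24 FPKM and was not called (limma adjusted p = 0.132). Of 7 tested inflammatory and acute phase genes 2 were lower, Lcn2 (96.5 ± 40.8 to 37.8 ± 10.2 FPKM, limma adjusted p = 0.0370) and Stat3 (9.88 ± 0.49 to 7.28 ± 0.08 FPKM, limma adjusted p = 0.0116), with a median log2 change of -0.34. This count was 1 on leaving out any 1 sample except control replicate 3.

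The rest of the pathway was read from 56 further complement genes grouped by role, of which 28 reached the mean of 1 FPKM needed for the test. In limma 3 were lower (C7, Cd93 and Lrp1) and 1 was higher (Cd55b), with a median log2 change of -0.14. Over all tested genes 4.41% were lower and 4.32% higher. Without control replicate 1 none of the 28 was called in either direction, and without valine replicate 1 none was called lower. For 19 of the 56 no sample reached 1 FPKM, Fcnb being listed at 0 throughout.

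**Figure D4:**
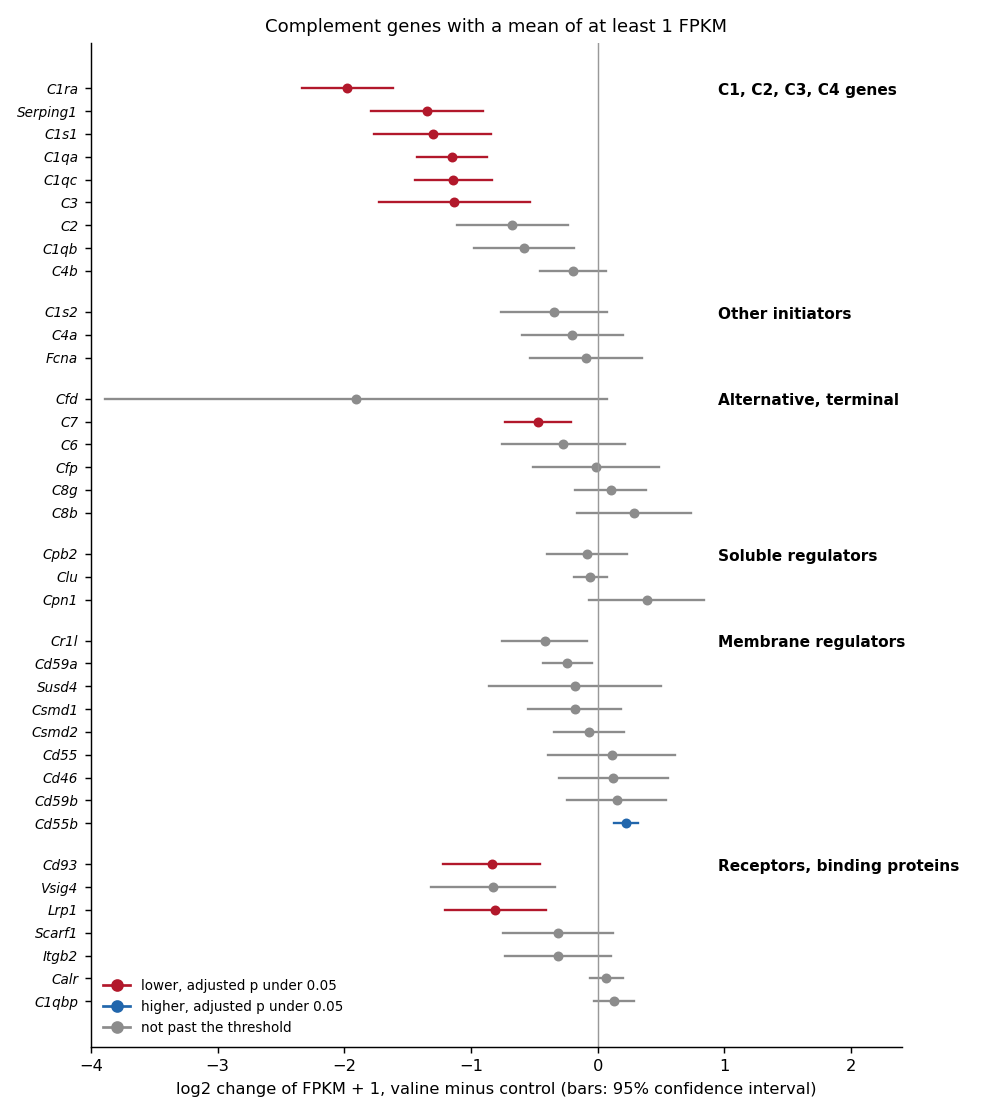
Log2 change of FPKM + 1, valine minus control, with its 95% confidence interval from limma, for the complement genes whose mean reached 1 FPKM, grouped by role. C1ra (-1.98) lies farthest to the left, followed by Cfd (-1.91), whose interval is wide and reaches 0, and by Serping1 (-1.35) and C1s1 (-1.30).

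Recognition molecules of the lectin pathway were low or level. Fcna, a ficolin of macrophages and liver, had 13.1, 8.94, 12.9 and 7.27 FPKM in control and 9.97, 10.8, 10.5 and 7.39 FPKM in valine samples. It was not called (limma adjusted p = 0.816), and the 95% interval of its log2 change ran from -0.54 to 0.35. The mannose-binding lectins Mbl1 and Mbl2 did not exceed 0.472 and 0.412 FPKM.

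Among terminal components, which build the membrane attack pore, C7 was abundant. It had 41.0, 46.7, 47.2 and 47.8 FPKM in control and 33.5, 33.6, 38.8 and 26.1 FPKM in valine samples (log2 change -0.47 ± 0.11 SE, limma adjusted p = 0.0405). The groups did not overlap, but the call was lost in 10 of 16 alternatives (limma adjusted p of 0.0503 to 0.0968), among them leaving out any control sample or valine replicate 1 or 2, no filter on low values, removal of the length trend and moderation without the trend. C8b had 11.6 ± 3.38 and 13.8 ± 0.59 FPKM and C8g 27.4 ± 2.80 and 29.6 ± 4.88 FPKM (limma adjusted p = 0.411 and 0.645). Cfd, the protease of the alternative pathway and also a fat cell product, was chosen after its values were seen. It had 29.8, 0.325, 1.77 and 1.01 FPKM in control replicates 1 to 4 and was at or below 0.152 FPKM with valine (limma adjusted p = 0.212), so its control mean rested on the same sample as the highest C3 value.

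Of 9 tested regulators on cell membranes 1 was higher and none lower, where 4.32% of all tested genes were higher and 4.41% lower. Cd55b, the decay-accelerating factor made mainly in testis, rose from 266.8, 270.1, 263.7 and 284.9 FPKM in control to 311.8, 310.9, 329.4 and 318.5 FPKM in valine samples (log2 change 0.23 ± 0.04 SE, limma adjusted p = 0.0156). This call was lost with equal totals (limma adjusted p = 0.113), quantile normalisation (0.258), removal of the length trend (0.0763) and without control replicate 1 (0.0517). Cd55 had 27.9 ± 4.37 and 31.0 ± 9.33 FPKM, Cd59b 23.1 ± 4.11 and 25.9 ± 5.88 FPKM, and Cd59a, which blocks the membrane attack pore, 19.8 ± 1.56 and 16.6 ± 1.55 FPKM. Of these Cd59a came nearest the threshold (limma adjusted p = 0.122, and 0.0279 with equal totals). Clu, a soluble inhibitor of the attack complex that Sertoli cells make in quantity, had 444.8 ± 32.2 and 426.4 ± 14.9 FPKM, with a 95% interval of the log2 change from -0.19 to 0.07.

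Of 7 tested receptors and binding proteins 2 were lower and none higher, where 4.41% of all tested genes were lower and 4.32% higher. Cd93, a receptor of endothelial and myeloid cells once taken for a C1q receptor, fell from 2.12 ± 0.62 to 0.725 ± 0.12 FPKM, a log2 change of -0.84 ± 0.17 SE (limma adjusted p = 0.0213). Lrp1, a scavenger receptor that takes up protease-inhibitor complexes, fell from 10.2 ± 2.46 to 5.31 ± 0.90 FPKM, a log2 change of -0.81 ± 0.17 SE (limma adjusted p = 0.0271). Both calls were lost on leaving out control replicate 1 (limma adjusted p = 0.0672 and 0.0639), among other samples. Vsig4, a macrophage receptor for C3 fragments, was chosen after its values were seen. It had 1.76 ± 0.62 and 0.551 ± 0.32 FPKM without overlap and missed the threshold (limma adjusted p = 0.0507). Calr and C1qbp, which bind C1q but serve mainly inside the cell, had 435.2 ± 25.0 and 456.4 ± 26.0 FPKM and 15.3 ± 1.09 and 16.8 ± 0.85 FPKM (limma adjusted p = 0.503 and 0.289).

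Genes with the profile most like each group were sought among 9766 named genes whose mean reached 5 FPKM. Likeness was the root mean square difference over the 8 samples of log2(FPKM + 1), each profile relative to its own control mean. Nearest to the C1q chains were Anxa5 (0.169), Sh3bgrl (0.179), Enpp5 (0.181), Mpeg1 (0.185) and Kif1c (0.198). Anxa5, which encodes a protein that binds phosphatidylserine, had 24.0, 22.5, 20.8 and 17.9 FPKM in control and 8.39, 8.98, 10.4 and 10.2 FPKM in valine samples. Nearest to C1ra, C1s1 and Serping1 were Sparcl1 (0.145), Ltbp4 (0.158), Plpp3 (0.168) and Fgl2 (0.207). Sparcl1, an extracellular matrix protein, had 30.4, 28.9, 23.4 and 24.7 FPKM in control and 8.66, 11.2, 8.05 and 8.30 FPKM in valine samples. The likeness describes these 8 samples, which share the difference between the groups.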

How the data were processed

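Total RNA of mouse testis was sequenced from Illumina TruSeq libraries, per the labels. The authors deposited FPKM values; reads were aligned with HISAT2 to GRCm39, per the submitters' processing notes, but the sources used here do not name the quantifier, strand setting or annotation release. FPKM totals were 944659 to 974626 in control and 1027662 to 1070524 in valine samples. Low values of control replicates 2 to 4 and valine replicates 1 to 4 gave depths of 0.866 to 0.991 relative to control replicate 1; absolute depth is unknown. No pair of samples was identical. Columns were assigned by group name or abbreviation and replicate number.

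Ensembl identifiers were matched to symbols in GENCODE vM21 and RefSeq tables of an older assembly (52081 of 55414 rows). Genes whose mean reached 1 FPKM were fitted as log2(FPKM + 1) with limma 3.58.1 in R 4.3.3, with a mean-variance trend, treatment as the only term, and two-sided p-values adjusted by Benjamini-Hochberg over all 22077 genes (threshold 0.05). The fit was tested on simulated data. The complement genes described and all gene lists were chosen with earlier results of these data known. Named genes were these 9; other complement genes past the threshold or with a mean of at least 10 FPKM; up to 4 called genes of each marker list, or the 2 most abundant; and the 5 nearest profiles of each of the C1q and C1ra-C1s1-Serping1 groups. Other genes named, among them Car3, Fabp4, Adipoq, Hp, Alb, Apoh, Mbl1 and Mbl2, were chosen outside this rule with the results known. Not all of them are marked so where they appear. One gene under this rule is not reported here. The alternatives were a pseudocount of 0.1, no filter, a filter at 5 FPKM, equal totals, quantile normalisation, removal of a length trend (loess span 0.3), a replicate block, moderation without the trend and leaving out each sample. No label gives a batch.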

Additional observations from a re-analysis of the deposited data

Results flagged for a closer look

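In the control group C7 was 41.0 FPKM in replicate 1 and 46.7 to 47.8 FPKM in the other 3 samples, a gap of 0.843 of the group's range, above Dixon's critical value for 4 samples. It was the only such sample among 44 groups of 4 samples (22 complement genes in 2 groups). Chance gives about 1 in 20, or 2.2 groups, so 1 is no more than chance gives. Cfd, at 29.8 FPKM in control replicate 1 and at most 1.77 FPKM in the other control samples, was not among these genes. Without control replicate 1 the log2 change of C7 was -0.52 (limma adjusted p = 0.0629).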

How the results depend on the processing

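The 9 complement genes kept a negative change under each of the alternatives run. The number called lower was 6, and 5 to 6 with 1 sample left out; with a filter at 5 FPKM it was 3, because 5 of the 9 remained to be tested, and with equal totals it was 8. None was called higher. The 9 genes were chosen with the difference known, so nothing is read from these counts, from calls of single genes among them or from their stability. The mean change of the C1q chains was -1.03 to -0.85 with 1 sample left out; that of C1r, C1s, C2, C3, C4 and C1 inhibitor was -1.18 to -0.97, and -1.39 with a pseudocount of 0.1. The difference between both changes was 0.02 to 0.32 over the 12 alternatives for which it was computed. Single calls in marker lists were less stable: none was higher among macrophage or liver markers in 12 of 16 alternatives each, none higher among Sertoli markers in 11, and none lower among fat cell markers in 10. The number called lower moved by over 1.5 times in 6 of 16 alternatives for macrophage markers, 9 for interferon-inducible and 11 for inflammatory genes.

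Over all genes 974 were lower and 954 higher. With equal totals, which shifted the median change by -0.10, 2022 were lower and 363 higher (15.2% of calls higher, against 49.5%); quantile normalisation left 398 higher (27.9%), moderation without the trend 503 and no filter 568. With 1 sample left out 461 to 802 were lower and 381 to 795 higher; the count of either direction moved by over 1.5 times without control replicate 1 or 2 or any valine replicate. Of the other complement genes 5 were lower with equal totals, 1 without a filter, and 0 to 3 with 1 sample left out (0 without control or valine replicate 1; 1 without control replicate 2 or 3 or valine replicate 2 or 4); 0 were higher with equal totals, quantile normalisation, removal of the length trend or moderation without the trend, and 0 to 1 with 1 sample left out. The log2 change of Fcna was -0.240 to 0.020 with 1 sample left out, turning positive without control replicate 1 or 3 or valine replicate 4, and that of Cd55 was -0.042 to 0.319, turning negative without valine replicate 4. With equal totals C8g (-0.010), Cd55 (-0.004) and Calr (-0.049) turned negative, and so did Calr with quantile normalisation (-0.108). The cause was not tested.

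Same-numbered control and valine samples were not shown to be paired: their deviations from the group means correlated at -0.0167, -0.0401, 0.104 and 0.111. With a replicate block 489 genes were lower and 581 higher, and 1 of the other complement genes was lower.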
